A study of Drosophila melanogaster with 12 samples.

Results

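The genes described here load and activate the replicative DNA helicase: Orc1 and Orc2, subunits of the origin recognition complex, Mcm2, Mcm3, Mcm5 and Mcm6, subunits of the MCM helicase ring, and Mcm10 and Cdc45, which act when the helicase is switched on. They were taken by gene symbol from the probe annotation and are 8 of the 11983 genes measured, each with 1 probe set. Their RNA was measured in eye discs, the larval tissue that forms the adult eye, of Drosophila melanogaster in the third larval instar, on 1 Affymetrix array per sample. There were 3 biological replicates in each of 4 genotypes: rbf120a, mutant in Rbf, the fly retinoblastoma gene, wtsX1Lats, mutant in the Hippo pathway kinase gene warts (wts), the double mutant rbf120a wtsX1Lats, and Canton S, a wild-type strain. The series' design text describes mosaic discs, with mutant cells making up most but not all of the tissue, so mutant values include some wild-type tissue, and the Canton S discs differ from the mutant discs in strain as well as in the 2 alleles, which cannot be told apart here. The labels give neither the number of animals nor of discs behind a replicate.

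An origin is prepared for replication when the origin recognition complex binds DNA in G1 and, with Cdc6 and the Cdt1 protein Double parked, loads MCM rings that lie idle until S phase. At the start of S phase a ring joined by Cdc45 and the GINS complex becomes the working helicase, with Mcm10 needed for its activation. Many of these genes are transcribed under E2F, which Rbf proteins restrain, and Orc1 is a known E2F target in flies. In the eye disc, cells divide ahead of the morphogenetic furrow, arrest in G1 within it, and pass through 1 more S phase behind it, called the second mitotic wave. Warts restrains the growth co-activator Yorkie.

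The 9 measured genes that mark the eye disc averaged 9.17 to 12.79 on the log2 scale over the 4 groups, with list medians of 9.80 to 10.62 over the 12 arrays. Testis genes lay near the bottom of the scale, with list medians of 4.43 to 4.66. Muscle markers were about as high as the eye disc markers, at 9.34 to 12.02, and brain and glia markers stood at 7.90 to 9.63. The share of other tissue in the samples was not tested. The mutated genes did not pass the test in the discs that carry their alleles: the change was -0.29 ± 0.26 for Rbf in rbf120a discs (SE; adjusted p = 0.812) and -0.25 ± 0.22 for wts in wtsX1Lats discs (adjusted p = 0.59), and neither level can check the labels, since the alleles need not alter it. All adjusted p-values are from limma with Benjamini-Hochberg adjustment over the 11983 genes, and an adjusted p under 0.05 counts as a change. The 3 wtsX1Lats arrays stood apart from each other. In replicate 3 the signal of the 3′ end over the 5′ end, a sign of RNA quality, was 1.70 (log2) for actin, against 0.32 to 0.82 in the 11 other arrays. In the same array it was 1.90 for eIF-4A, against 0.58 to 0.95, and 1.81 for GAPDH, against 1.11 to 1.43. The 18S rRNA control ran the other way, at 0.71 in this array, against 1.22 to 2.47. Results on wtsX1Lats discs are given with and without its single arrays.

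Orc1 (CG10667, arm 2R), the subunit that with its partners binds ATP and origin DNA, had log2 signals of 9.63, 9.76 and 9.76 in rbf120a discs, 10.21, 8.51 and 9.17 in wtsX1Lats discs, 9.74, 9.53 and 9.78 in double mutant discs, and 7.84, 8.04 and 7.61 in Canton S discs. Every mutant array was above every Canton S array, and the wtsX1Lats arrays spread over the widest range. Orc2 (CG3041, arm 3R), another core subunit of the complex, had 8.98, 9.14 and 8.93 in rbf120a discs, 9.57, 8.40 and 8.48 in wtsX1Lats discs, 9.28, 9.02 and 9.19 in double mutant discs, and 7.81, 8.10 and 7.44 in Canton S discs. Here too no mutant array fell to the Canton S range, although wtsX1Lats replicates 2 and 3 lay close above it.

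**Figure D1:**
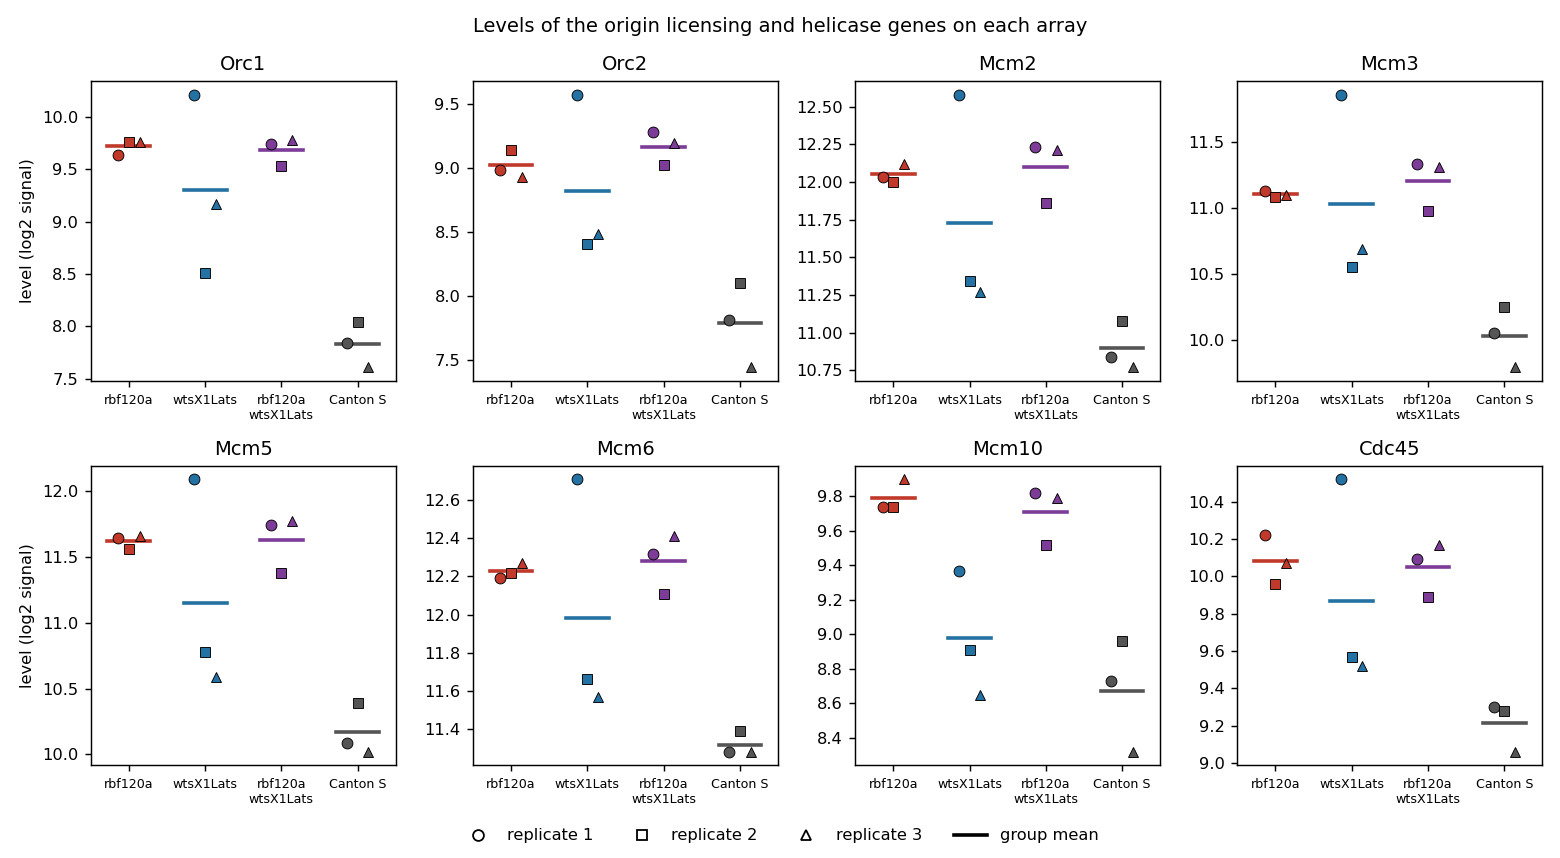
Log2 signal of each of the 8 genes in every array, with 1 point per array and a bar at the mean of the 3 arrays of a group, from rbf120a at the left to Canton S at the right. The rbf120a and double mutant points lie close together above Canton S in every gene, and the wtsX1Lats points are spread out, with replicate 1 the highest of all 12 arrays in 7 of 8 genes.

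The MCM ring genes showed the same arrangement at higher signals. Mcm2 (CG7538, arm 3R) had 12.03, 12 and 12.12 in rbf120a discs, 12.58, 11.34 and 11.27 in wtsX1Lats discs, 12.23, 11.86 and 12.21 in double mutant discs, and 10.84, 11.08 and 10.77 in Canton S discs. Mcm3 (CG4206, X chromosome) had 11.13, 11.08 and 11.10 in rbf120a discs, 11.86, 10.55 and 10.69 in wtsX1Lats discs, 11.33, 10.98 and 11.31 in double mutant discs, and 10.05, 10.25 and 9.79 in Canton S discs. Both encode subunits of the same 6-part ring, and in both the 9 mutant arrays all lay above the 3 Canton S arrays. Mcm5 (CG4082, arm 3R) had 11.64, 11.56 and 11.66 in rbf120a discs, 12.09, 10.78 and 10.59 in wtsX1Lats discs, 11.74, 11.38 and 11.77 in double mutant discs, and 10.09, 10.39 and 10.02 in Canton S discs. Mcm6 (CG4039, X chromosome) had 12.19, 12.22 and 12.27 in rbf120a discs, 12.71, 11.66 and 11.57 in wtsX1Lats discs, 12.32, 12.11 and 12.41 in double mutant discs, and 11.28, 11.39 and 11.28 in Canton S discs. Canton S replicates of Mcm6 differed by little, and its lowest mutant value, in wtsX1Lats replicate 3, was still above them.

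Of the genes that act at helicase activation, Cdc45 (CG3658, X chromosome), a part of the working helicase, had 10.22, 9.96 and 10.07 in rbf120a discs, 10.52, 9.57 and 9.52 in wtsX1Lats discs, 10.09, 9.89 and 10.17 in double mutant discs, and 9.30, 9.28 and 9.06 in Canton S discs. As in the ring genes, no mutant array fell to the Canton S range. Mcm10 (CG9241, arm 2L) had 9.74, 9.74 and 9.90 in rbf120a discs, 9.37, 8.91 and 8.65 in wtsX1Lats discs, 9.82, 9.52 and 9.79 in double mutant discs, and 8.73, 8.96 and 8.32 in Canton S discs. It was the exception among the 8 genes, since its wtsX1Lats and Canton S arrays overlapped.

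In rbf120a discs, Orc1 rose by 1.89 ± 0.31 on the log2 scale relative to Canton S (SE, n = 3 arrays each; 3.70-fold; limma adjusted p = 0.00534). Mcm5 followed with 1.45 ± 0.30 (2.74-fold; adjusted p = 0.0199), Orc2 with 1.23 ± 0.27 (2.35-fold; adjusted p = 0.0262), Mcm2 with 1.15 ± 0.27 (2.22-fold; adjusted p = 0.0374) and Mcm10 with 1.12 ± 0.20 (2.18-fold; adjusted p = 0.00725). The remaining genes had changes of 1.07 ± 0.27 for Mcm3, 0.91 ± 0.23 for Mcm6 and 0.87 ± 0.22 for Cdc45, with adjusted p-values of 0.0547, 0.0519 and 0.0524. Thus 5 of 8 rose and the other 3 fell just short of the threshold, where 215 of all 11983 genes (1.79%) rose, and the median change was 1.14 against 0 over all genes. Every rbf120a array was above every Canton S array in 8 of 8 genes, which was so for 10.7% of all genes. With the wtsX1Lats group left out of the fit, an alternative chosen after seeing the data, 8 of 8 genes rose, as they did with dim genes left out or with quantile normalization, and 4 of 8 rose without the variance trend. Leaving out single arrays gave 2 to 8 genes called, with 2 in the absence of any 1 rbf120a array or of Canton S replicate 1 or 3, 8 in the absence of wtsX1Lats replicate 1 or 3, and median changes of 1.00 to 1.26. Over all genes these fits called 197 to 632 in either direction, against 420 with all arrays.

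In wtsX1Lats discs, Orc1 and Orc2 passed the test, Orc2 and Mcm3 lying close to the threshold on either side. Orc1 was higher by 1.47 ± 0.31 on the log2 scale than in Canton S (SE, n = 3 arrays each; 2.77-fold; limma adjusted p = 0.018), and Orc2 by 1.03 ± 0.27 (2.04-fold; adjusted p = 0.0446). The ring genes had changes of 1.00 ± 0.27 for Mcm3, 0.98 ± 0.30 for Mcm5, 0.83 ± 0.27 for Mcm2 and 0.66 ± 0.23 for Mcm6, with adjusted p-values of 0.0541 to 0.116. For Cdc45 the change was 0.66 ± 0.22 (adjusted p = 0.107), and for Mcm10 it was 0.31 ± 0.20 (adjusted p = 0.412), with a 95% interval of -0.12 to 0.73. So 2 of 8 genes rose, where 273 of all genes (2.28%) did, and the median change was 0.91 against 0.019 over all genes. The arrays of the 2 groups did not overlap in 7 of 8 genes, Mcm10 being the exception, and 11.4% of all genes had every wtsX1Lats array above every Canton S array. Replicate 1 decided the size of these changes: the median was 0.46 without it, 1.10 without replicate 2 and 1.12 without replicate 3, and 2, 3 and 7 genes rose in those fits. Calls over all genes also grew without replicate 3, to 1596 in either direction, against 672 with all arrays. Without replicates 1 and 3 together, an alternative chosen after seeing the data, the median change of the 8 genes was 0.48. This leaves 1 wtsX1Lats array, which is assumed to vary like the other groups. No gene was called without Canton S replicate 1 or 3 or with the 2 compared groups alone in the fit, and 1 was called without any 1 rbf120a or double mutant array. Without Canton S replicate 1 or 3, or with the compared groups alone, 7 of 8 genes had an unadjusted p under 0.05. The share of all genes under this threshold was not computed. Orc2 was called in 3 of the 12 fits that leave out an array.

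In double mutant discs all 8 genes rose, where 267 of all genes (2.23%) did. Orc1 was higher by 1.85 ± 0.31 on the log2 scale than in Canton S (SE, n = 3 arrays each; 3.61-fold; limma adjusted p = 0.00482), Mcm5 by 1.47 ± 0.30 (adjusted p = 0.0137) and Orc2 by 1.38 ± 0.27 (adjusted p = 0.0107). The 3 other ring genes rose by 1.20 ± 0.27 (Mcm2), 1.18 ± 0.27 (Mcm3) and 0.96 ± 0.23 (Mcm6), with adjusted p-values of 0.0231, 0.0258 and 0.0302. Mcm10 rose by 1.04 ± 0.20 (adjusted p = 0.00902) and Cdc45 by 0.84 ± 0.22 (adjusted p = 0.0457). The median change was 1.19 against 0.002 over all genes, and every double mutant array was above every Canton S array in 8 of 8 genes, against 13.8% of all genes. Leaving out single arrays gave 3 to 8 genes called, with 3 in the absence of double mutant replicate 1 or 3 or of Canton S replicate 1, and 4 in the absence of Canton S replicate 3. Over all genes such fits called 297 to 1080 in either direction, against 658 with all arrays. Orc1 and Mcm10 passed in every such fit of rbf120a and of the double mutant against Canton S, and Orc2 in every such fit of the double mutant.

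**Figure D2:**
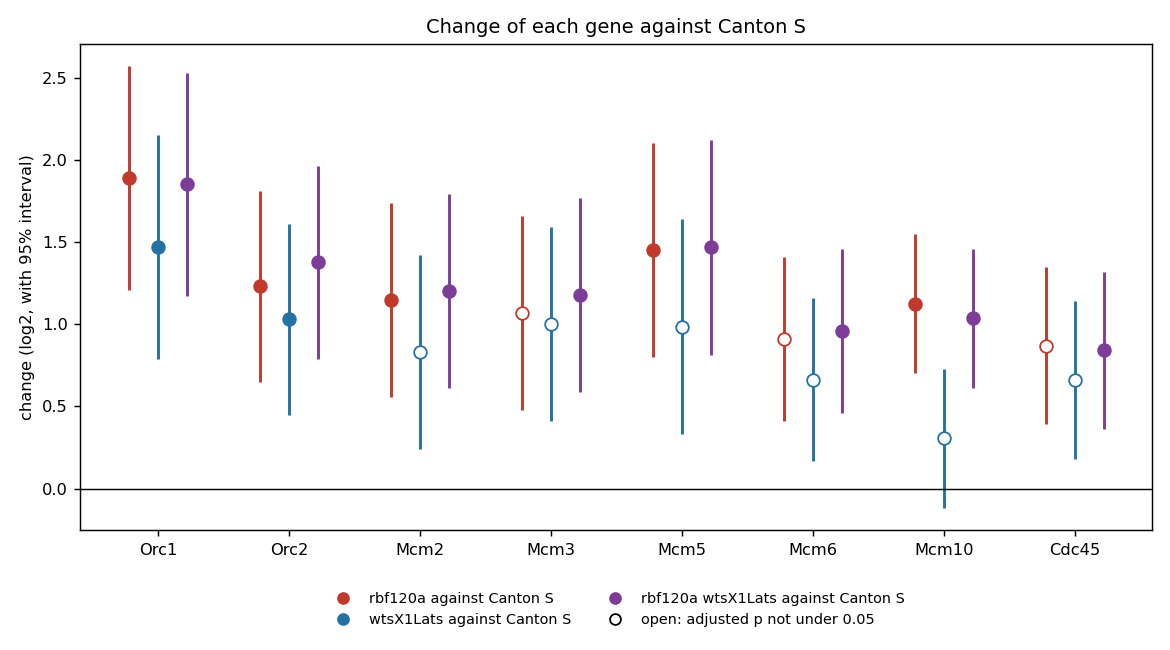
Log2 change of each of the 8 genes in the 3 mutant groups against Canton S, with 95% intervals of the limma fit; filled points have an adjusted p under 0.05. The rbf120a and double mutant points lie within 0.15 of each other in every gene, and the wtsX1Lats point of Mcm10 is the single one whose interval includes 0.

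The double mutant did not differ detectably from rbf120a in any of the 8 genes. Differences of the double mutant minus rbf120a ranged from -0.09 for Mcm10 (95% interval -0.51 to 0.34) to 0.15 for Orc2 (-0.44 to 0.73), with a median of 0.03. By limma 0 of 8 genes passed, where 81 of all genes (0.676%) did. The lowest limma adjusted p of the 8 was 0.994, and 0 had an unadjusted p under 0.05. Intervals of this width do not show that the levels were equal. They rest on a spread pooled over all 4 groups. The median SD of the 8 genes was 0.07 in rbf120a, 0.16 in double mutant and 0.69 in wtsX1Lats discs.

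Against wtsX1Lats, the double mutant was higher in the mean of all 8 genes, by 0.18 to 0.73 with a median of 0.36, but 0 of 8 passed and no gene of the 11983 did (0%). Mcm10 was the single gene with an unadjusted p under 0.05: its level was 9.71 ± 0.16 in double mutant discs and 8.98 ± 0.36 in wtsX1Lats discs (SD, n = 3 each), a difference of 0.73 ± 0.20 (SE; limma adjusted p = 0.471). Without wtsX1Lats replicate 1, 3 of the 8 genes and 20 of all genes passed, and the median was 0.76. Without replicate 2 or 3, 0 of 8 passed, and the median was 0.14 without replicate 2. The comparison of rbf120a with wtsX1Lats was similar, with differences of 0.07 to 0.82, a median of 0.28 and 0 of 8 genes called, where 120 of all genes (1%) were. Mcm10 again had the largest difference and the only unadjusted p under 0.05, with 9.79 ± 0.09 in rbf120a discs and 8.98 ± 0.36 in wtsX1Lats discs, a difference of 0.82 ± 0.20 (95% interval 0.39 to 1.24; adjusted p = 0.0754). It was also the only 1 of the 8 genes in which every rbf120a array was above every wtsX1Lats array, which was so for 8.03% of all genes. Without wtsX1Lats replicate 1, Orc1, Mcm2, Mcm5, Mcm6 and Mcm10 passed, where 171 of all genes did, and the median difference was 0.68. Without replicates 2 and 3 in turn, 0 of 8 passed, and the median difference was 0.07 and 0.06. These comparisons share the mutant arrays with those above.

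The interaction asks whether the rbf120a allele changed a gene by a different amount in wtsX1Lats discs than in Canton S discs. A strain difference between Canton S and all mutant groups also enters it, with a negative sign where the mutant groups are higher. This cannot be told apart from the alleles here. The interaction was below 0 in all 8 genes, with a median of -0.83: the double mutant's change from Canton S was smaller than the sum of both single mutants' changes. The lowest value was that of Orc1, at -1.5 ± 0.44 (SE; 95% interval -2.46 to -0.54; limma adjusted p = 0.218), and the value nearest 0 that of Mcm10, at -0.39 ± 0.28 (adjusted p = 0.698). None of the 8 passed, where 107 of all genes (0.893%) did. An unadjusted p under 0.05 was found in 5 of the 8, and the share of all genes under it was not computed. Without wtsX1Lats replicate 2, Orc1 passed, with -1.89 and an adjusted p of 0.0372. Without wtsX1Lats replicate 1 the median was -0.42.

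The order of the group means was nearly the same in every gene. Canton S had the lowest mean and wtsX1Lats the next lowest in 8 of 8 genes, and the highest mean belonged to the double mutant in 5 genes and to rbf120a in 3. The upper neighbours, rbf120a and the double mutant, did not differ detectably in the test above, which pools the spread of all 4 groups. In 7 of 8 genes the mean of wtsX1Lats hid arrays on both sides of them. Its replicates 2 and 3 were below every rbf120a array in 8 of 8 genes, against 13.3% of all genes, and below every double mutant array in 8 of 8, against 11.5%, while its replicate 1 was the highest of all 12 arrays in 7 of 8, all but Mcm10. Among all genes, 25.5% had their highest value in that array. Since the tissue was measured in bulk, more cells that replicate and more RNA per cell cannot be told apart.

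Within 3 of the 4 genotypes the genes also shared an order among the arrays. Median deviations of the 8 genes from their Canton S means were 1.11, 1.09 and 1.18 in the rbf120a replicates, 1.73, 0.48 and 0.39 in the wtsX1Lats replicates, 1.31, 0.96 and 1.30 in the double mutant replicates and 0.02, 0.22 and -0.19 in the Canton S replicates. Within the double mutant, replicate 2 was the lowest in 8 of 8 genes, as it was in 38.8% of all genes. Within Canton S, replicate 3 was the lowest in 8 of 8 (35.1% of all genes) and replicate 2 the highest in 7 of 8 (36.4%). Within wtsX1Lats, replicate 1 was the highest in 8 of 8 (43.7%). Within rbf120a there was no such order, with replicate 3 the highest in 5 of 8 genes (37.5% of all genes) and replicate 2 the lowest in 5 of 8 (37.2%). The genes of an array share that array and are not separate replicates of a genotype.

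Spread within a group differed between genotypes. The median SD of the 8 genes was 0.07 in rbf120a discs, 0.69 in wtsX1Lats discs, 0.16 in double mutant discs and 0.21 in Canton S discs, where the median over all genes was 0.10, 0.17, 0.08 and 0.13 in the same groups. In wtsX1Lats discs the 8 SDs ran from 0.36 for Mcm10 to 0.85 for Orc1. The fit uses 1 pooled spread for all 4 groups.

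The 8 genes were also compared with each other. Each gene was set against the mean of the other 7 in the same array, with the Canton S mean at 0. On this scale Orc1 stood at 0.68, 0.84 and 0.79 in rbf120a discs, 0.86, 0.23 and 0.96 in wtsX1Lats discs, 0.66, 0.74 and 0.70 in double mutant discs and 0.01, 0.02 and -0.02 in Canton S discs, so it stood above its partners in all 9 mutant arrays. Mcm10 stood at -0.15, -0.14 and -0.01 in rbf120a discs, -1.06, -0.27 and -0.60 in wtsX1Lats discs, -0.21, -0.23 and -0.25 in double mutant discs and 0.06, 0.11 and -0.17 in Canton S discs, and its wtsX1Lats arrays were thus all below its other arrays. Cdc45 and Mcm6 lay below the other genes, with means of -0.39, -0.24 and -0.46 for Cdc45 and -0.35, -0.23 and -0.32 for Mcm6 in rbf120a, wtsX1Lats and double mutant discs. Mcm5 was above the rest, at 0.28, 0.13 and 0.26, and Mcm2 close to them, at -0.07, -0.04 and -0.04. These values are descriptions with no test.

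**Figure D3:**
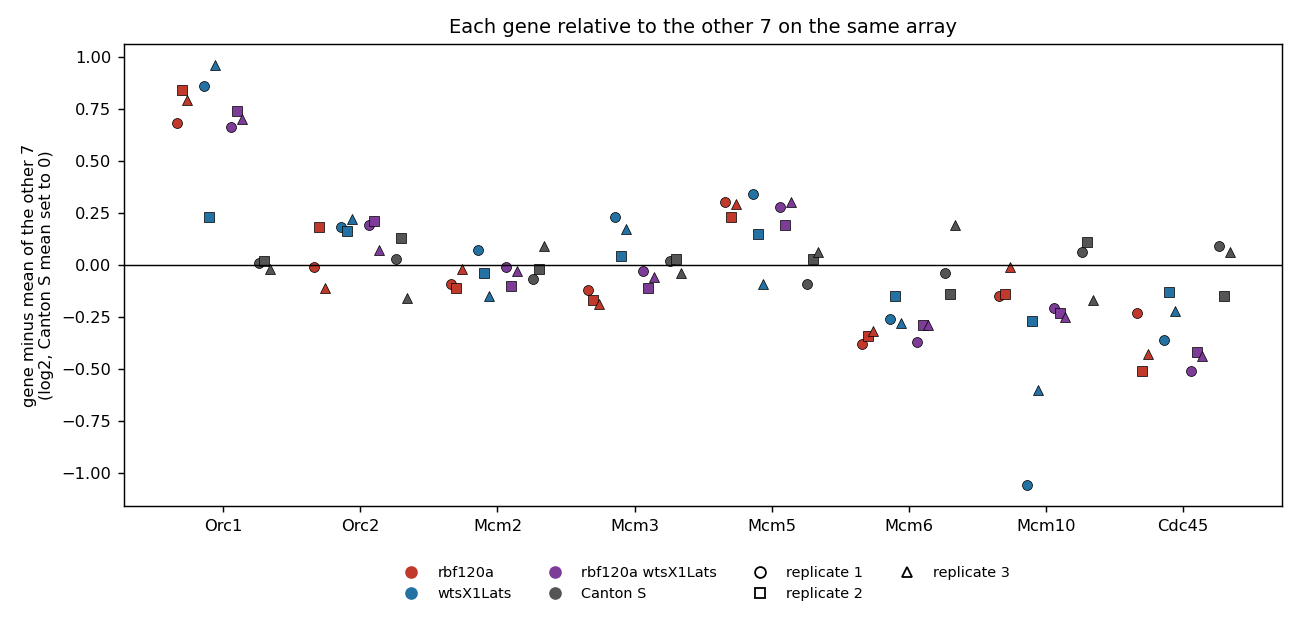
Log2 signal of each gene minus the mean of the other 7 in the same array, with the Canton S mean at 0 and 1 point per array, from rbf120a at the left to Canton S at the right. Orc1 is above 0 in all 9 mutant arrays, and Mcm10 is lowest in the wtsX1Lats arrays, at -1.06, -0.27 and -0.60.

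Other genes of origin licensing had changes in the same direction. Of 9 genes written down, 5 were measured, and 3 of them rose in rbf120a discs, 1 in wtsX1Lats discs and 3 in double mutant discs, with median changes of 0.99, 0.79 and 0.97. Without wtsX1Lats replicates 1, 2 and 3 in turn, an alternative chosen after seeing the data, 1, 3 and 3 of the 5 rose in wtsX1Lats discs. For this and the lists below, the fit without replicate 3 called 1596 of all genes in either direction, against 672 with all arrays. Cdc6, the loading ATPase, was higher by 0.99 ± 0.18 in rbf120a discs (SE; limma adjusted p = 0.00893), 1.02 ± 0.18 in wtsX1Lats discs (adjusted p = 0.00588) and 0.97 ± 0.18 in double mutant discs (adjusted p = 0.00755). With all arrays it was the only one of these 5 to rise in all 3, and it passed in wtsX1Lats discs without any 1 of its arrays. The dup gene, which encodes Double parked, had changes of 1.02 ± 0.22, 0.63 ± 0.22 and 1.17 ± 0.22, with adjusted p-values of 0.0253, 0.124 and 0.00909 in the same groups. For dpa, which encodes the Mcm4 subunit of the ring, they were 1.15 ± 0.26, 0.91 ± 0.26 and 1.22 ± 0.26, with adjusted p-values of 0.0323, 0.0665 and 0.0177. Orc4 and Orc5, further origin recognition subunits, did not pass in any group with all arrays. Their changes were 0.71 to 0.85, with adjusted p-values of 0.0682 to 0.17. In wtsX1Lats discs Orc5 and dpa rose without replicate 2, and dup and dpa without replicate 3.

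Genes of helicase activation were divided. Of 11 written down, 10 were measured, and 2 rose in rbf120a discs, 1 in wtsX1Lats discs and 3 in double mutant discs, with median changes of 0.73, 0.38 and 0.74. In wtsX1Lats discs 1 rose without replicate 1 or 2, and 4 rose and 2 fell without replicate 3. RecQ4, whose vertebrate counterpart is needed for helicase activation, was higher by 1.62 ± 0.19 in rbf120a discs (SE; limma adjusted p = 0.000665), 0.96 ± 0.19 in wtsX1Lats discs (adjusted p = 0.0142) and 1.54 ± 0.19 in double mutant discs (adjusted p = 0.000692). Claspin, a fork protein of the replication checkpoint, rose by 1.28 ± 0.18 in rbf120a discs (adjusted p = 0.00164) and by 1.06 ± 0.18 in double mutant discs (adjusted p = 0.00482), against a change of 0.35 ± 0.18 in wtsX1Lats discs (adjusted p = 0.296). With all arrays the difference between rbf120a and wtsX1Lats passed for Claspin alone of the 10, at 0.93 ± 0.18 (adjusted p = 0.0322). Claspin did not pass without wtsX1Lats replicate 1 (adjusted p = 0.0614) or 2 (adjusted p = 0.0808). Without replicate 1, RecQ4 and Ctf4 passed instead. Without replicate 2, 0 of the 10 passed, and without replicate 3, Claspin alone did. With all arrays mus101, the counterpart of TopBP1, rose in double mutant discs alone among the 3 groups, by 0.92 ± 0.23 (adjusted p = 0.0353). Its changes were 0.80 ± 0.23 and 0.74 ± 0.23 in rbf120a and wtsX1Lats discs (adjusted p = 0.0942 and 0.0823), and its difference between these groups was not called. Without wtsX1Lats replicate 3, mus101 rose in wtsX1Lats discs too.

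The GINS complex, which joins Cdc45 on the ring, was not called in any group with all 12 arrays, although Sld5 rose in wtsX1Lats discs without their replicate 3. In rbf120a discs the changes were 0.92 ± 0.26 for Sld5 (SE; limma adjusted p = 0.0877), 0.67 ± 0.21 for Psf3 (adjusted p = 0.129), 0.16 ± 0.15 for Psf2 (adjusted p = 0.818) and 0.02 ± 0.24 for Psf1 (adjusted p = 0.996). The kinase that fires origins, Cdc7 with its partner chif, had changes of -0.22 ± 0.18 and -0.15 ± 0.29 there (adjusted p = 0.788 and 0.947). Ctf4, which links the helicase to the polymerase that primes DNA, had 1.19 ± 0.33 (adjusted p = 0.077). In wtsX1Lats discs without their replicate 3, Cdc7 and chif fell and Ctf4 rose.

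Farther along the same process, 19 of 22 replication fork and nucleotide genes were measured, and 11 rose in rbf120a discs, 5 in wtsX1Lats discs and 14 in double mutant discs, with median changes of 1.15, 0.66 and 1.15. The 5 in wtsX1Lats discs were 6, 7 and 13 without replicates 1, 2 and 3 in turn. PolA1, the catalytic subunit of DNA polymerase alpha, rose by 1.15 ± 0.13 in rbf120a discs (SE; limma adjusted p = 0.000613) and by 1.14 ± 0.13 in double mutant discs (adjusted p = 0.000508), with a change of 0.50 ± 0.13 in wtsX1Lats discs (adjusted p = 0.0546). With all arrays it alone of the 19 passed in rbf120a against wtsX1Lats, at 0.65 ± 0.13 (adjusted p = 0.0436). PolA1 did not pass there without wtsX1Lats replicate 1 (adjusted p = 0.0551) or 2 (adjusted p = 0.0988). In the fit without replicate 1, however, 9 others of the 19 passed, where 171 of all genes did. The fits without replicates 2 and 3 called 0 and 2 of the 19, PolA1 being among the 2. Median differences of the 19 were 0.64, 0.15 and 0.08 without replicates 1, 2 and 3 in turn, against 0.34 with all arrays. PolA1 was named for a small p in rbf120a against Canton S, a comparison that shares the rbf120a arrays. RnrL, the large subunit of ribonucleotide reductase, rose in all 3 mutant groups, by 1.15 ± 0.18, 0.78 ± 0.18 and 1.18 ± 0.18 (adjusted p = 0.00299, 0.0248 and 0.00235). Of 8 measured E2F and Rbf factor genes, 1 rose in rbf120a discs, namely Rbf2, by 0.79 ± 0.18 (adjusted p = 0.0358). In wtsX1Lats discs 0 rose (2 with an unadjusted p under 0.05), and in double mutant discs 3. Of all genes 1.79%, 2.28% and 2.23% rose in these groups, and the medians of the 8 were 0.06, 0.08 and 0.15. Without wtsX1Lats replicates 1, 2 and 3 in turn, 0, 1 and 2 of the 8 rose in wtsX1Lats discs, and lin-52 fell without replicate 1. Of 5 G1 to S regulators Cdk2 rose in all 3 groups, by 0.95 ± 0.11, 0.58 ± 0.11 and 0.93 ± 0.11 (adjusted p = 0.000613, 0.0103 and 0.000563). With all arrays the others did not pass in any group. CycE had changes of 0.74 ± 0.24, 0.57 ± 0.24 and 0.77 ± 0.24, CycD of -0.35 ± 0.15, -0.51 ± 0.15 and -0.23 ± 0.15, and fzr of -0.40 ± 0.19, -0.45 ± 0.19 and -0.48 ± 0.19, and the medians of the 5 were 0.07, -0.04 and 0.10. In wtsX1Lats discs CycD fell without replicate 2 or 3 and fzr without replicate 3, and RnrL and Cdk2 rose there without any 1 of the 3 arrays.

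Some genes of mitosis, the phase of division that follows replication, also rose. Of 18 written down, 11 were measured, and 3 rose in rbf120a discs, 6 in wtsX1Lats discs and 9 in double mutant discs, with median changes of 0.46, 0.58 and 0.58. The 6 in wtsX1Lats discs were 6, 4 and 8 without replicates 1, 2 and 3 in turn. The Aurora B kinase gene aurB rose in all 3, by 0.75 ± 0.17, 0.96 ± 0.17 and 0.87 ± 0.17 (SE; limma adjusted p = 0.033, 0.00693 and 0.0116), as did borr, its partner in the chromosomal passenger complex, by 0.64 ± 0.13, 0.58 ± 0.13 and 0.58 ± 0.13. By array, the median deviation of the mitosis list from Canton S was 0.41, 0.44 and 0.52 in rbf120a discs, 0.88, 0.44 and 0.38 in wtsX1Lats discs, and 0.67, 0.47 and 0.62 in double mutant discs. For the 8 origin genes, wtsX1Lats replicates 2 and 3 stood at 0.48 and 0.39 and the rbf120a replicates at 1.11, 1.09 and 1.18. The difference between the lists was not tested.

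**Figure D4:**
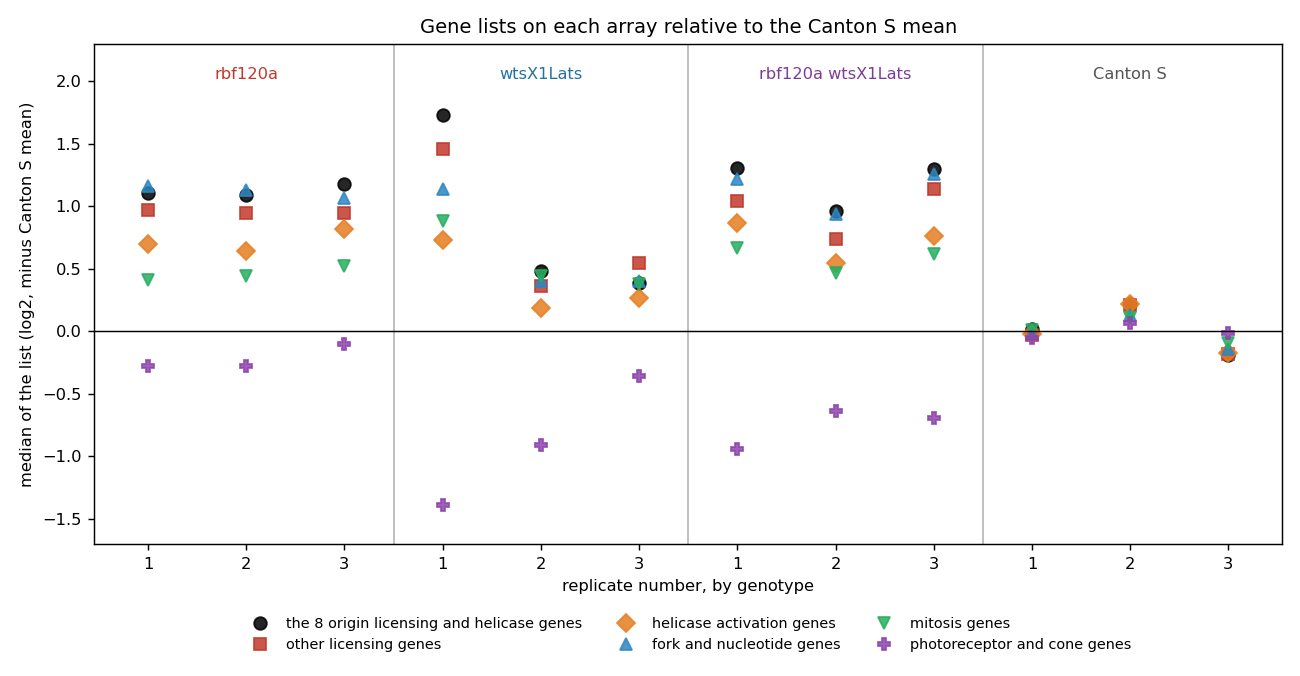
Median deviation from the Canton S mean (log2) of the 8 genes and of other gene lists in each of the 12 arrays, from rbf120a at the left to Canton S at the right. The 8 genes and the other licensing genes are highest in wtsX1Lats replicate 1 and low in its replicates 2 and 3, and the photoreceptor and cone genes are lowest in wtsX1Lats replicate 1, at -1.39.

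Markers of other cell states and types moved with these groups, and their part in the changes of the 8 genes was not tested. Of 13 measured photoreceptor and cone genes, which mark differentiating cells, 0 fell in rbf120a discs (2 with an unadjusted p under 0.05), 5 in wtsX1Lats discs and 4 in double mutant discs, with median changes of -0.21, -1.03 and -0.91. Of all genes 1.71%, 3.33% and 3.26% fell in these groups. Their median deviation was -1.39, -0.91 and -0.36 in the wtsX1Lats replicates, in which the 8 origin genes stood at 1.73, 0.48 and 0.39, and -0.28, -0.28 and -0.10 in the rbf120a replicates. The 5 that fell in wtsX1Lats discs were sev, gl, ro, sens and pros, and 4, 4 and 10 fell without replicates 1, 2 and 3 in turn. Summed linear signal over these 13 genes was 5880 to 7080 in rbf120a, 2820 to 6280 in wtsX1Lats, 3640 to 4870 in double mutant and 7160 to 8270 in Canton S arrays.

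Of 11 blood cell markers, 5 fell in rbf120a discs, 3 in wtsX1Lats discs and 4 in double mutant discs, and their summed signal was 2880 to 3350, 3260 to 5470, 2960 to 4270 and, in Canton S, 5020 to 9260. Without wtsX1Lats replicates 1, 2 and 3 in turn, 3, 3 and 6 blood cell markers fell in wtsX1Lats discs. Of 9 brain and glia markers, 0 fell in rbf120a discs (2 with an unadjusted p under 0.05), 5 in wtsX1Lats discs and 7 in double mutant discs, with sums of 8020 to 8160, 4170 to 6620, 4520 to 5600 and, in Canton S, 9110 to 9940. The 5 in wtsX1Lats discs were 4, 4 and 7 without replicates 1, 2 and 3 in turn. Muscle markers, 8 measured, had sums of 24800 to 26700, 12800 to 40600, 16100 to 19900 and, in Canton S, 18200 to 33800, with deviations of -1.03, -0.54 and 0.97 in the wtsX1Lats replicates. Fat body markers, 5 measured, summed to 242 to 1090, 223 to 338, 236 to 251 and, in Canton S, 190 to 388. The values are log2 signals with no detection call, so no marker is at an exact 0, and the testis markers, 8 measured, summed to 214 to 235 over all 12 arrays.

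Which genes had a pattern most like that of the 8 was measured as the root mean square distance over the 12 arrays, each gene centred on its own mean, from the mean profile of the 8. The members themselves lay at 0.058 for Mcm2 to 0.310 for Orc1, with 0.263 for Mcm10, against a median of 0.592 over all genes. The 5 nearest other genes were CG11164 at 0.080, dpa at 0.083, dnk, the deoxyribonucleoside kinase gene, at 0.098, DNAlig1, a DNA ligase gene, at 0.100, and PolE1, the catalytic subunit of DNA polymerase epsilon, at 0.103. Mcm2 was the single member nearer to the mean than CG11164, and as each member is part of the mean its distance is smaller than that of an outside gene with the same pattern. In rbf120a discs CG11164 was higher by 1.18 ± 0.28 (SE; limma adjusted p = 0.0382) and dnk by 1.33 ± 0.25 (adjusted p = 0.011), and neither passed in wtsX1Lats discs, with changes of 0.82 ± 0.28 and 0.76 ± 0.25. Both were picked for their likeness to the members over these same arrays. Changes like those of the members therefore follow from the choice and are not separate evidence.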

How the data were processed

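The authors deposited 1 table of log2 values for 18952 probe sets on 12 arrays, made per the labels' protocols from 6 ug of total RNA per sample, extracted with Trizol and RNeasy columns and labelled with biotin. That the scale is log2 follows from the range of values; how the authors summarised and normalized them is not given in the sources at hand. The platform annotation lists 13647 probe sets with 1 gene and 402 with several; the second kind and 183 control probe sets were left out. Each of 11983 genes was taken from its probe set with the highest mean; 1094 had more than 1. Symbols were updated and chromosome arms taken from a gene table of assembly Release 6 plus ISO1 MT.

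A single fit by lmFit and trended eBayes (limma 3.58.1, R 4.3.3) of 4 group means over 12 arrays, with 8 residual degrees of freedom, gave 7 contrasts, checked on simulated data. Errors of changes are SEs of the fit and errors of levels SDs over 3 arrays. The p-values set a change against a spread pooled over all 4 groups, not that of the compared groups alone. For the 8 genes the wtsX1Lats arrays add most to it, and the number of samples limits the precision. Exact permutation tests of 3 against 3 could not go below p = 0.1. Where genes with an unadjusted p under 0.05 are counted, the share of all genes under it was not computed. The members, lists and tests were chosen with earlier results of these data known. Genes named were the 8 members, all measured licensing and activation genes, up to 4 genes per other list with the smallest p in rbf120a against Canton S, Rbf, wts and the 5 genes nearest to the member profile; the photoreceptor genes named by their calls in wtsX1Lats are an exception chosen after their values were seen. Replicate numbers did not pair the samples: deviations of same-numbered arrays correlated at -0.30 to 0.31. A planned search of promoters for motifs was not run, and no sequence was used here. List genes that the annotation did not match, such as Orc6, Mcm7 and geminin, were not analysed here. Alternatives were other normalizations, filters, spread models, probe set rules and leaving out arrays.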

Additional observations from a re-analysis of the deposited data

Results flagged for a closer look

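Outside the 8 genes, the interaction test called 3 of the 11 blood cell markers: the double mutant's change from Canton S was smaller in size than the sum of both single mutants' changes. The interaction was 2.09 for Hml (limma adjusted p = 0.0143), 2.60 for eater (adjusted p = 0.0171) and 2.88 for srp (adjusted p = 0.0495). Hml averaged 7.42 in rbf120a, 7.41 in wtsX1Lats and 7.46 in double mutant discs, against 9.46 in Canton S discs, so the 3 mutant groups lay close together, and the strain of the Canton S discs cannot be told apart from the alleles. For srp the means were 4.82, 4.85 and 5.72 in the mutant groups, against 6.83 in Canton S; the single mutant means lie near the bottom of the scale, where the testis list has medians of 4.43 to 4.66, so the size of its interaction is not reliable.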

How the results depend on the processing

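For rbf120a against Canton S, where 5 of the 8 genes and 420 of all genes were called, 8 were called with the 2 compared groups alone, with array weights (gene-by-gene method; 1474 genes in all), with genes of a mean under 6 left out, with quantile normalization, and without the wtsX1Lats group (792 in all). Without the variance trend 4 were called, Mcm2 losing its call (adjusted p = 0.0537), and for the double mutant against Canton S 7, Cdc45 losing its call (adjusted p = 0.0509). For wtsX1Lats against Canton S (2 of 8; 672 in all), 0 were called with the compared groups alone (181), 6 with array weights (2031), 1 with arrays centred on their medians, and 0 without wtsX1Lats replicates 1 and 3 (311; median change 0.48). Array weights called 2 genes for the double mutant against wtsX1Lats (74 in all, against 0) and 5 for rbf120a against wtsX1Lats (947 against 120). The double mutant against Canton S (658 in all) gave 1076, 2434 and 1401 with the compared groups alone, array weights and no wtsX1Lats group; against rbf120a (81) these gave 412, 498 and 242, with 0 of the 8. The other totals over 1.5 times apart were 23 for rbf120a against wtsX1Lats with those groups alone and 77 with the replicate block, and for the interaction 397 against 107 with array weights. Leaving out single arrays, totals were 197 to 632 for rbf120a, 297 to 1596 for wtsX1Lats and 297 to 1080 for the double mutant against Canton S, and 0 to 772 for the other contrasts. It gave 2 to 8 genes called for rbf120a, 0 to 7 for wtsX1Lats (median 0.46 to 1.12) and 3 to 8 for the double mutant against Canton S, 0 to 3 for the double mutant against wtsX1Lats (median 0.14 to 0.76), 0 to 5 for rbf120a against wtsX1Lats (median 0.06 to 0.68) and 0 to 1 for the interaction (median -1.03 to -0.42). Small differences changed sign among these fits. Double mutant minus rbf120a ranged from -0.09 to 0.049 for Cdc45, -0.14 to 0.0087 for Mcm10, -0.013 to 0.17 for Mcm2, -0.06 to 0.14 for Mcm5, -0.01 to 0.14 for Mcm6 and -0.08 to 0.044 for Orc1. Double mutant minus wtsX1Lats ranged from -0.06 to 0.59 for Mcm3 and -0.007 to 0.84 for Orc1, and rbf120a minus wtsX1Lats from -0.17 to 0.49 for Mcm3 and -0.01 to 0.57 for Orc2. Mcm5 in the double mutant minus rbf120a was -0.001 with quantile normalization. The causes were not tested. The replicate number as a replicate block, which does not pair the samples (3 of 12 arrays correlated best with their own number), gave 6 genes called for rbf120a, 3 for wtsX1Lats and 8 for the double mutant against Canton S, and 0 for the other 4 contrasts.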
